A study of Mus musculus with 6 samples.

Results

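Plasma protein genes and a few other genes best known from liver cells were followed in the pancreas of mouse embryos, where their transcripts were present at E13.5. The genes were Rbp4, Ttr, Trf, Afp, Alb, Ambp, Vtn, Crp, A1cf and Tmprss6, 10 of the 23337 gene symbols counted in each library, and each was taken by its symbol. They were selected on earlier results of the same comparison of mutant with control pancreas described here. Their differences between the groups are therefore given as a description, without a test. Genes of the serpin family, which also encode plasma proteins, were not part of the selection. Most of the proteins are secreted into blood. A1cf, a nuclear cofactor of RNA editing, and Tmprss6, a protease anchored in the plasma membrane, are not carriers, and they belong to the set as liver-type genes.

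The study set pancreas lacking Prox1, a homeobox transcription factor gene active in pancreas and liver development, against normal pancreas. All embryos were of the NMRI strain and were taken at E13.5. The 3 control libraries came from wildtype embryos, and the 3 mutant libraries from embryos labelled Prox1-nullyzygous with the genotype Prox1 GFPCre/D. Each library was made from 1 pool of 5 to 6 whole pancreata of 1 genotype, so a value is an average over embryos and over all cell types of the organ. What either mutant allele lacks of the Prox1 locus is not stated in the labels, and no litter, batch or sex is given. Where p-values are given, they measure the spread between these pools.

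Rbp4 and transthyretin work as a pair in plasma, where retinol bound to Rbp4 travels in a complex with transthyretin, which also carries thyroid hormone. Albumin and alpha-fetoprotein are related carrier proteins encoded side by side in 1 gene cluster, and alpha-fetoprotein is the main serum protein of the fetus. Transferrin carries iron, and Tmprss6 restrains hepcidin, the hormone that limits iron export. In the fetal liver several of these genes mark hepatoblasts, and in the adult liver most of them are expressed by hepatocytes, while liver and ventral pancreas arise from neighbouring foregut endoderm.

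Total counts were 16060424 to 17633867 reads per library, and 17332 to 17473 genes had at least 1 read. Levels are given in CPM, read counts relative to the TMM-scaled library size, and 1 CPM stood for 15.9 to 17.5 reads. Prox1 itself had 105 ± 1.95 CPM in controls and 93.2 ± 10.5 CPM in mutants (SD, n = 3 each), and with a log2 fold change of -0.17 (SE 0.0743) it was not called changed (edgeR adjusted p 0.235). A count over the whole gene thus did not separate the groups and does not check the labels. Control pool 3 and mutant pool 1 stood apart from the other pools, with 0.526 and 0.126 CPM of Xist, a transcript of female cells, against 2014 to 2812 CPM in the rest. Pancreatic identity was plain in all 6 pools, with means of 1268 to 1742 CPM from controls to mutants for Cpa1, an acinar carboxypeptidase, and of 1448 to 879 CPM for the glucagon gene Gcg.

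In mutant pancreas 9 of the 10 genes were lower, and Trf was the exception. All 10 genes passed the filter on low counts and entered the edgeR fit of 14687 genes. The fit called 9 of them lower at an adjusted p under 0.05, where 4.28% of all tested genes were called lower, and 0 of them higher, where 3.67% of all tested genes were called higher. For 9 of the 10, every mutant pool lay below every control pool, which was so for 13.4% of all tested genes. The median log2 fold change of the 10 genes was -1.52, and that of all tested genes was 0.00. Since the genes were selected on this contrast, nothing is read from these shares. Alb and Tmprss6 reached 10 reads in every control pool but not in every mutant pool, and so passed the filter through the controls, where they were high. In bulk samples such as these, fewer cells of a type and less RNA per cell cannot be told apart.

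**Figure D1:**
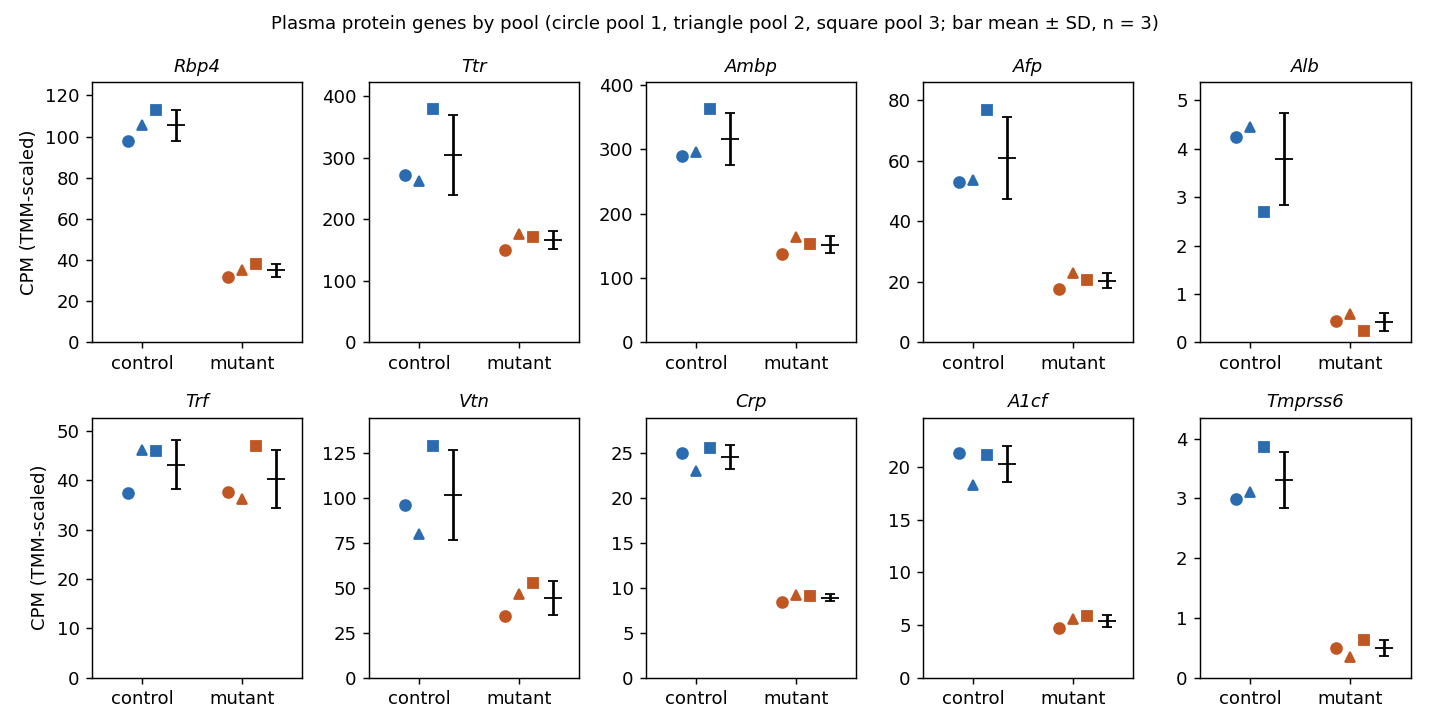
Level of each of the 10 genes in CPM (TMM-scaled, linear axis from 0) in the 3 control pools (blue) and the 3 mutant pools (orange), with circles, triangles and squares for pools 1 to 3 and bars for mean ± SD (n = 3). For every gene but Trf the mutant points lie below all control points.

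The sequence just upstream of the start site was available for 7 of the 10 genes, in 8 windows from RefSeq on GRCm38.p6, since Rbp4 has 2 start sites. The upstream sequences of Afp, Alb, Vtn and Rbp4 are shown because the genes fell together and because they hold most of the short motifs searched. Each is the 250 bases before the RefSeq start, 5′ to 3′ on the gene's strand, with motif matches in capitals. Afp lies at chr5:90490464-90490713, plus strand, Alb at chr5:90460620-90460869, plus strand, Vtn at chr11:78498870-78499119, plus strand, and the inner start of Rbp4 at chr19:38124812-38125061, minus strand.
Afp: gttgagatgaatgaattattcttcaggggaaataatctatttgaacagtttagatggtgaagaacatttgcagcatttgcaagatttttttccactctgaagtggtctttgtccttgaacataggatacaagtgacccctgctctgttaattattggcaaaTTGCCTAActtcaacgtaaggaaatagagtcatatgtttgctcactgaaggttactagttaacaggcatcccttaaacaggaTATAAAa
Alb: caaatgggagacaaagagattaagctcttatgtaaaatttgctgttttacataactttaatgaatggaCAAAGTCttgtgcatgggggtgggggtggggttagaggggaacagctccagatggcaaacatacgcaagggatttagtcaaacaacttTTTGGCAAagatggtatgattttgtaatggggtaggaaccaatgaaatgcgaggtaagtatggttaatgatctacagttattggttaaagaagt
Vtn: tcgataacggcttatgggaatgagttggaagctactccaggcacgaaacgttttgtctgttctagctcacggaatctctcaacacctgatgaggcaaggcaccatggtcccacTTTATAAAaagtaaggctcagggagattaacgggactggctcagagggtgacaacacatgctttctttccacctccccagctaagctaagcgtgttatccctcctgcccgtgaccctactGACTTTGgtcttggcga
Rbp4: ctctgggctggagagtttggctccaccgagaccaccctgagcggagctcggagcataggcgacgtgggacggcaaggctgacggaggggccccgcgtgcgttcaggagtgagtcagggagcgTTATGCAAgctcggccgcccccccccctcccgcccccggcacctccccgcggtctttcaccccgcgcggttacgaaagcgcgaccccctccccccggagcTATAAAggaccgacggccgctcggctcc

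A set of 5 motifs, of factors known from liver genes or of the core promoter, was searched on both strands in windows of 300 bases, from 250 before to 50 after each of 32851 RefSeq starts. The C/EBP letters TTGCNNAA were in 3 of the 8 windows of these genes (Afp, Alb and the inner start of Rbp4) and in 10.8% of all windows. The HNF4 letters CAAAGTC were in 2 of 8, in Alb 182 bases and in Vtn 17 bases before the start, and in 4.44% of all windows. The FOXA letters TGTTTAC were in 2 of 8, in A1cf and at the outer start of Rbp4, and in 3.65% of all windows. The ONECUT letters ATTGAT were in 1 of 8, in Crp, and in 7.54% of all windows. The TATA letters TATAAA were in 4 of 8 (Rbp4 inner start, Afp, Vtn and Crp) and in 13.6% of all windows, and in Vtn the matches on the plus and minus strands overlap each other. The TATA letters of Afp begin 7 bases before its RefSeq start, while GENCODE places the first base of Afp further downstream, at 90490737. For Vtn GENCODE begins a transcript upstream of the RefSeq start, at 78499091, so by that annotation the HNF4 letters at 78499103 to 78499109 lie inside the gene. The window of Ambp held none of the 5 motifs. The windows of these genes were 40.0% to 72.0% G and C, the highest being the inner start of Rbp4, against a median of 52.7% over all windows. A match is a run of letters and not a measured binding site.

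Rbp4, which encodes the plasma carrier of retinol, fell to about the same share of its control level in each mutant pool. Its counts were 1641, 1737 and 1932 reads in control pools 1 to 3, against 505, 600 and 666 in mutant pools 1 to 3. Scaled to library size, these were 97.9, 106 and 113 CPM in control pools 1 to 3, against 31.7, 35.3 and 38.1 CPM in mutant pools 1 to 3. The highest mutant pool lay far below the lowest control pool, and the pools within each group were close together. The means were 105 ± 7.47 CPM in controls and 35.0 ± 3.18 CPM in mutants (SD, n = 3), a level 3.01-fold lower in mutants, with a log2 fold change of -1.59 (SE 0.0785). The gene spans chromosome 19, 38116629 to 38125281, minus strand (GRCm38), with 1343 exonic bases.

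Ttr, encoding transthyretin, had the second lowest fold difference among the 10 genes, after Trf. It was counted at 4564, 4322 and 6507 reads in control pools 1 to 3, against 2389, 2996 and 3007 in mutant pools 1 to 3. The levels were 272, 263 and 380.0 CPM in control pools 1 to 3, against 150.1, 176 and 172 CPM in mutant pools 1 to 3. Control pool 3 stood well above the other controls, and the mutant pools lay below all of them. Its mean fell from 305 ± 65.0 CPM to 166 ± 14.1 CPM (SD, n = 3), 1.84-fold, and the log2 fold change was -0.88 (SE 0.131). Without control pool 3 and mutant pool 1, the pools with almost no Xist, it was -0.62. The retinol carrier and its partner thus kept their direction together but not their proportion, as the ratios given further on show. Ttr spans chromosome 18, 20665280 to 20674321, plus strand, with 1186 exonic bases.

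Trf, encoding transferrin, the iron carrier of plasma, was the only one of the 10 genes whose groups overlapped. Its reads numbered 628, 757 and 787 in control pools 1 to 3, against 598, 614 and 822 in mutant pools 1 to 3. In scaled terms these were 37.5, 46.1 and 45.96 CPM in control pools 1 to 3, against 37.6, 36.2 and 47.0 CPM in mutant pools 1 to 3. The highest of all 6 pools was a mutant pool, and the lowest was also a mutant pool. The means of 43.2 ± 4.94 CPM and 40.2 ± 5.90 CPM (SD, n = 3) differed by less than the SD of either group, with a log2 fold change of -0.10 (SE 0.115) that ranged from -0.23 to -0.01 over 14 alternative fits. The gene spans chromosome 9, 103204001 to 103230444, minus strand. In GENCODE, 2108 of its 3320 exonic bases are shared with Gm20425, a gene model on the same strand. No counted symbol was matched to Gm20425. Whether the authors' annotation held this model is not stated, so it is not known whether reads there were left out of Trf.

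Afp, encoding alpha-fetoprotein, was the more abundant of the albumin family genes in the set. Its counts were 886, 881 and 1313 reads in control pools 1 to 3, against 283, 387 and 359 in mutant pools 1 to 3. These correspond to 52.9, 53.6 and 76.7 CPM in control pools 1 to 3, against 17.8, 22.8 and 20.5 CPM in mutant pools 1 to 3. Control pool 3 was again the highest and mutant pool 1 the lowest, with no overlap between groups. The mean was 61.1 ± 13.54 CPM in controls and 20.4 ± 2.504 CPM in mutants (SD, n = 3), 3.00-fold lower, and the log2 fold change was -1.58 (SE 0.154), or -1.30 without the pools with almost no Xist. Afp spans chromosome 5, 90490737 to 90508907, plus strand.

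Alb, encoding albumin, the most abundant protein of adult plasma, was rare in these organs and had the largest fold difference of the 10 genes. Only 71, 73 and 46 reads were counted in control pools 1 to 3, against 7, 10 and 4 in mutant pools 1 to 3. The levels were 4.24, 4.44 and 2.69 CPM in control pools 1 to 3, against 0.440, 0.589 and 0.229 CPM in mutant pools 1 to 3. Control pool 3, the highest control for most of the set, was the lowest control for Alb, and it still lay above every mutant pool. The mean went from 3.79 ± 0.960 CPM to 0.419 ± 0.181 CPM (SD, n = 3), 8.93-fold lower, with a log2 fold change of -3.16 (SE 0.349) that ranged from -3.49 to -2.86 over the alternative fits. With so few reads in the mutant pools the size of the difference is less certain than its direction. Alb spans chromosome 5, 90460897 to 90476602, plus strand and lies 14134 bases from Afp.

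Ambp, whose precursor protein is cut into the lipocalin alpha-1-microglobulin and the protease inhibitor bikunin, was, with Ttr, the most abundant of the set. It had 4868, 4857 and 6216 reads in control pools 1 to 3, against 2192, 2779 and 2683 in mutant pools 1 to 3. Scaled levels were 290.5, 296 and 363 CPM in control pools 1 to 3, against 138, 164 and 153 CPM in mutant pools 1 to 3. Control pools 1 and 2 were nearly equal, control pool 3 was higher, and all mutant pools were lower than any control. The mean was 316 ± 40.5 CPM in controls and 152 ± 13.03 CPM in mutants (SD, n = 3), 2.09-fold lower, with a log2 fold change of -1.06 (SE 0.0930), or -0.89 without the pools with almost no Xist. Ambp spans chromosome 4, 63143275 to 63154799, minus strand.

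Vtn, encoding vitronectin, an adhesive protein of plasma and extracellular matrix, varied more between pools than most of the set. The counts were 1610, 1311 and 2209 reads in control pools 1 to 3, against 546, 785 and 924 in mutant pools 1 to 3. As levels these were 96.1, 79.8 and 129 CPM in control pools 1 to 3, against 34.3, 46.2 and 52.8 CPM in mutant pools 1 to 3. The groups did not overlap, but both spread widely, from control pool 2 to control pool 3 and from mutant pool 1 to mutant pool 3. Its mean was 102 ± 25.1 CPM in controls and 44.5 ± 9.39 CPM in mutants (SD, n = 3), 2.28-fold lower, and the log2 fold change of -1.19 (SE 0.189) became -0.83 without the pools with almost no Xist. Vtn spans chromosome 11, 78499091 to 78502324, plus strand.

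Crp, encoding C-reactive protein, a pentraxin that binds phosphocholine on microbes and damaged cells, had the tightest groups of the set. Reads numbered 419, 377 and 437 in control pools 1 to 3, against 134, 155 and 159 in mutant pools 1 to 3. The corresponding levels were 25.0, 22.9 and 25.5 CPM in control pools 1 to 3, against 8.42, 9.13 and 9.09 CPM in mutant pools 1 to 3. Within each group the pools were almost level, and the groups were far apart. The coefficient of variation was 5.56% in controls and 4.48% in mutants, against 25.3% and 43.2% for Alb, the most variable. The means were 24.5 ± 1.36 CPM and 8.88 ± 0.398 CPM (SD, n = 3), 2.76-fold lower in mutants, with a log2 fold change of -1.46 (SE 0.0874). The GENCODE gene model spans chromosome 1, 172698055 to 172833031, plus strand, with 3444 exonic bases in 3 blocks.

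A1cf, the RNA-binding cofactor that guides the deaminase Apobec1 to apolipoprotein B mRNA, had the third largest fold difference of the set, after Alb and Tmprss6. It had 358, 301 and 363 reads in control pools 1 to 3, against 75, 95 and 102 in mutant pools 1 to 3. These were 21.4, 18.3 and 21.2 CPM in control pools 1 to 3, against 4.71, 5.59 and 5.83 CPM in mutant pools 1 to 3. Control pools 1 and 3 were level with each other, control pool 2 was slightly lower, and the mutant pools formed a separate low group. The mean fell from 20.3 ± 1.71 CPM to 5.38 ± 0.589 CPM (SD, n = 3), 3.76-fold, with a log2 fold change of -1.91 (SE 0.118). A1cf spans chromosome 19, 31868764 to 31948995, plus strand.

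Tmprss6, encoding matriptase-2, the membrane protease that cleaves the hepcidin co-receptor hemojuvelin, was near the floor of detection in mutants. Its counts were 50, 51 and 66 reads in control pools 1 to 3, against 8, 6 and 11 in mutant pools 1 to 3. Scaled, these were 2.98, 3.10 and 3.85 CPM in control pools 1 to 3, against 0.503, 0.353 and 0.629 CPM in mutant pools 1 to 3. No mutant pool came near a control pool. The mean of 3.31 ± 0.472 CPM in controls compared with 0.495 ± 0.138 CPM in mutants (SD, n = 3), 6.60-fold lower, with a log2 fold change of -2.72 (SE 0.270). The gene spans chromosome 15, 78439667 to 78468634, minus strand.

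Per exonic base the 10 genes covered a wide range, and their order changed little between the groups. In RPKM, which is CPM per kilobase of exon, Ttr led in controls with 257 ± 54.8, followed by Ambp with 225 ± 28.7 (SD, n = 3), and the pools of these neighbours overlapped. Next came Rbp4 with 78.6 ± 5.56, Vtn with 50.1 ± 12.4, Afp with 18.1 ± 4.02 and Trf with 13.0035 ± 1.49 RPKM, none of which overlapped the next. Crp stood at 7.11 ± 0.395 and A1cf at 5.38 ± 0.453 RPKM, again without overlap. Alb with 1.62 ± 0.410 and Tmprss6 with 0.987 ± 0.141 RPKM closed the order, and their pools overlapped. In mutants Ttr still led with 140.1 ± 11.9 RPKM over Ambp with 108 ± 9.25 RPKM, now without overlap. Rbp4 at 26.1 ± 2.37 and Vtn at 21.9 ± 4.62 RPKM overlapped in mutants. Trf moved ahead of Afp there, with 12.1 ± 1.78 against 6.05 ± 0.744 RPKM and no overlap. The order of the other genes was the same as in controls, from Crp at 2.58 ± 0.115 and A1cf at 1.43 ± 0.156 down to Alb at 0.179 ± 0.0773 and Tmprss6 at 0.147 ± 0.0411 RPKM. All reads of the 10 genes together made up 0.0898% to 0.117% of a control library and 0.0419% to 0.0495% of a mutant library. Ttr and Ambp held 62.5% to 64.0% of these reads in controls and 65.1% to 68.5% in mutants.

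Ratios of a pair of genes within 1 library are not affected by library scaling. For most of the pairs given here, the ratio differed between the groups without overlap. The ratios were chosen after earlier results were known and are descriptive. How often the ratios of other gene pairs separate the groups was not counted. Per exonic base, the ratio of Afp to Alb was 8.68, 8.39 and 19.8 in control pools 1 to 3 and 28.1, 26.9 and 62.4 in mutant pools 1 to 3. Every mutant ratio was thus above every control ratio, although control pool 3 and mutant pool 3 each stood high within their group. The mutant ratios rest on only 7, 10 and 4 reads of Alb in mutant pools 1 to 3, so their size is uncertain. Rbp4 over Ttr, the carrier against its partner, was 0.262 to 0.355 in controls and 0.177 to 0.196 in mutants, without overlap. Ambp over Ttr had the smallest difference of the non-overlapping ratios, at 0.804 to 0.946 in controls and 0.751 to 0.781 in mutants. Trf over Ttr went the other way, at 0.0432 to 0.0626 in controls and 0.0732 to 0.0977 in mutants. Afp over Ttr was 0.0684 to 0.0718 in controls and 0.0417 to 0.0455 in mutants, and it was nearly constant within each group. A1cf over Rbp4 was 0.0617 to 0.0777 in controls and 0.0529 to 0.0564 in mutants, and Tmprss6 over Trf was 0.0666 to 0.0829 in controls and 0.00966 to 0.0132 in mutants. The mutant ratios of Tmprss6 rest on only 8, 6 and 11 reads of that gene in mutant pools 1 to 3. By contrast Vtn over Ambp overlapped between groups, at 0.187 to 0.247 in controls and 0.173 to 0.239 in mutants, as did Crp over Vtn, at 0.117 to 0.170 in controls and 0.101 to 0.145 in mutants.

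Each gene was centred on its own mean log2 level over the 6 libraries. By this measure 9 of the 10 genes lay higher in every control pool than in every mutant pool, and Trf did not. The genes were selected on this contrast, so a common profile is built into the set and nothing is read from it. The median centred level of the 10 genes was 0.64, 0.63 and 0.93 log2 units in control pools 1 to 3 and -0.94, -0.65 and -0.68 in mutant pools 1 to 3. Control pool 3 was the highest control for 7 of the 10 genes, and mutant pool 1 was the lowest mutant for 7 of the 10. These are the pools with almost no Xist counts, and by the median level they lie at the outer end of each group. How often the same pools were outermost over all tested genes was not counted, so nothing is read from these numbers. Closest to the median profile, by root-mean-square distance over the 6 libraries, were Rbp4 at 0.0919, Afp at 0.0935 and Crp at 0.0947 log2 units. Ambp, Vtn and A1cf lay between 0.218 and 0.223, and Ttr at 0.323. Tmprss6 at 0.556 and Alb at 0.835 lay further off on the side of a larger difference, and Trf at 0.711 on the side of a smaller one. The plot of centred profiles shows the same spread gene by gene.

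**Figure D2:**
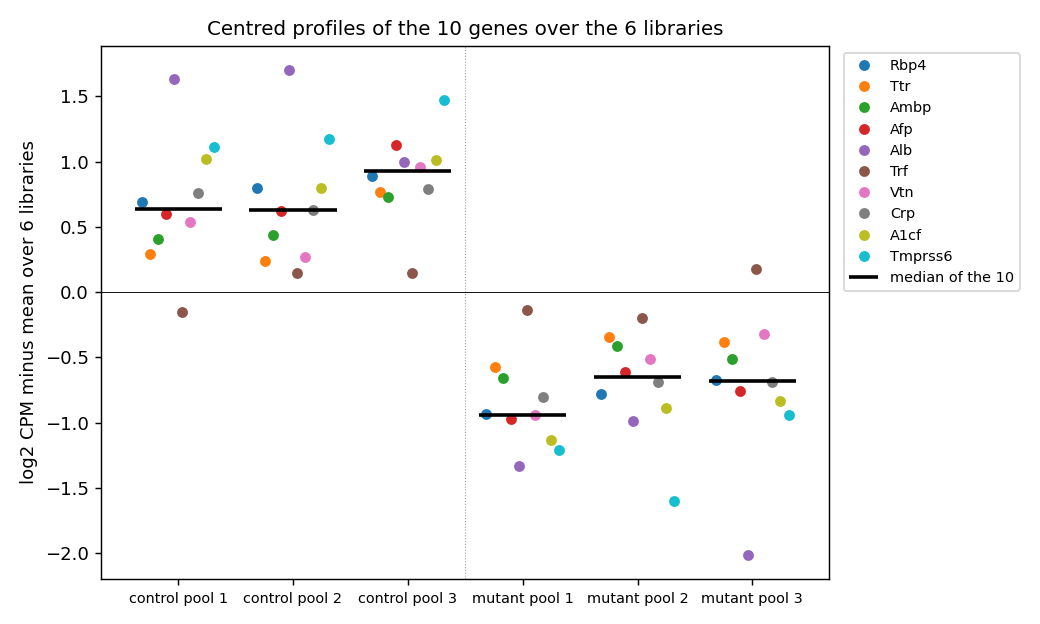
Log2 CPM of each of the 10 genes minus its own mean over the 6 libraries (y axis, log2 units), for control pools 1 to 3 and mutant pools 1 to 3 (x axis), with 1 point per gene and a black bar for the median of the 10. The median bars stand at 0.64, 0.63 and 0.93 in controls and at -0.94, -0.65 and -0.68 in mutants, while Trf (brown) stays near 0.

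Outside the set, 8 of 13154 genes above a minimum average log2 CPM of 1 were closest to this median profile, and the rule that finds them uses the same contrast, so no test is given. Those described here are the following. Sct, encoding the hormone secretin, was the closest at 0.109 log2 units, with 5.61, 6.94 and 7.59 CPM in control pools 1 to 3, against 2.01, 2.47 and 2.17 CPM in mutant pools 1 to 3. Sstr3, a somatostatin receptor gene, followed at 0.114. Next were the secreted serpin genes Serpina10 at 0.115 and Serpinf2, which encodes alpha-2-antiplasmin, at 0.122. O3far1, now called Ffar4, a fatty acid receptor gene, was at 0.124. Gjd2, a gap junction gene, was at 0.141 and Osgin1 at 0.146. Their log2 fold changes lay between -1.67 for Serpinf2 and -1.37 for Sstr3.

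The genes next to these 10 on the chromosome were taken by position and were tested. Of them, Afm and Apcs are also among the plasma protein genes given below, which were listed with earlier results known. Of 18 flanking protein-coding genes outside the set, 16 were tested and 6 were called lower and 0 higher. Over all tested genes 4.28% were called lower and 3.67% higher. Leaving out 1 pool at a time gave 4 to 7 lower and 0 to 2 higher. Both neighbours of Rbp4 were lower. O3far1, 2365 bases away, had 5.73, 7.12 and 6.83 CPM in control pools 1 to 3, against 1.89, 2.59 and 2.34 CPM in mutant pools 1 to 3 (log2 fold change -1.52, SE 0.177, edgeR adjusted p 0.00142). Pde6c, a cone phosphodiesterase gene 7499 bases away on the other side, went from 1.77 to 0.730 CPM (log2 fold change -1.26, SE 0.257, edgeR adjusted p 0.0189), and its call was lost on leaving out control pool 1 or 3 or mutant pool 1, 2 or 3 (edgeR adjusted p 0.0520 to 0.0666). Kif12, a kinesin gene 10830 bases from Ambp, fell from 91.9 to 54.9 CPM (log2 fold change -0.74, SE 0.111, edgeR adjusted p 0.00481), while Zfp618 on the other side of Ambp did not pass the test (log2 fold change -0.02, SE 0.109). Apcs, which encodes the other short pentraxin, serum amyloid P, lies 60929 bases from the end of the GENCODE gene model of Crp, and further from its start. It had 4.83, 5.72 and 6.60 CPM in control pools 1 to 3, against 2.20, 2.83 and 2.23 CPM in mutant pools 1 to 3. Its groups did not overlap (log2 fold change -1.24, SE 0.188, edgeR adjusted p 0.00499). Beside Ttr, B4galt6 was called with a small difference (log2 fold change -0.19, SE 0.0451, edgeR adjusted p 0.0382), a call lost on leaving out control pool 1 or 3 or mutant pool 1, 2 or 3 (edgeR adjusted p 0.103 to 0.130), and Dsg2 was not called (log2 fold change -0.18, SE 0.0490). None of the tested neighbours of Alb outside its own cluster, of Trf, Vtn, A1cf or Tmprss6 passed the test. Without control pool 2, Dsg2 was called lower (edgeR adjusted p 0.0333), and 1300017J02Rik beside Trf and Prkg1 beside A1cf were called higher (edgeR adjusted p 0.0369 and 0.00527).

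**Figure D3:**
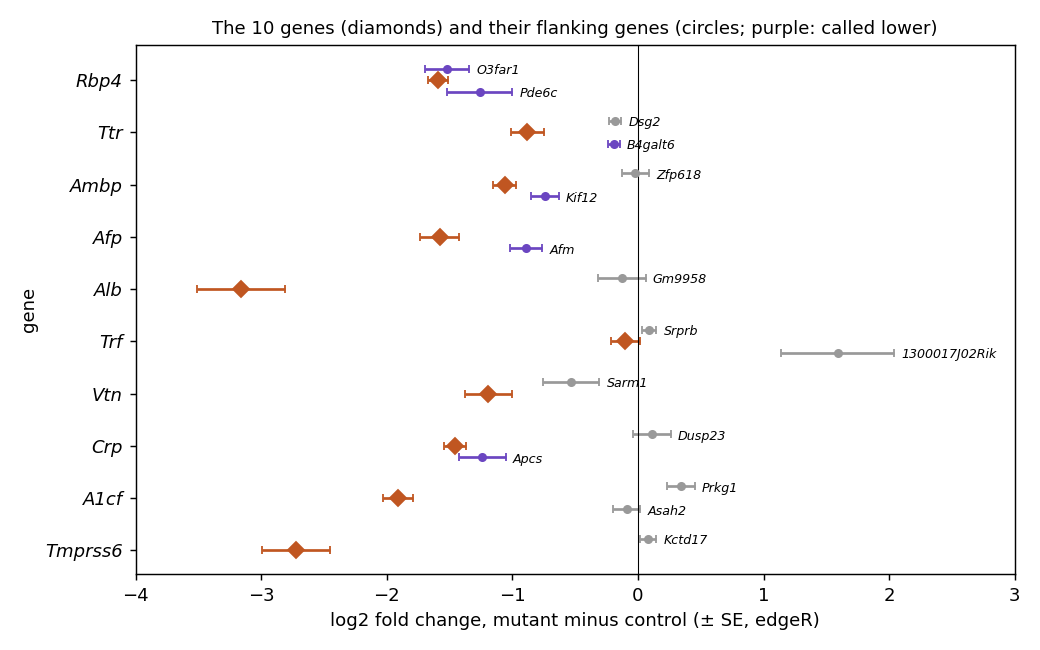
Log2 fold change, mutant minus control, from edgeR with its SE, for the 10 genes (orange diamonds) and their tested flanking genes (circles, purple where called lower). O3far1, Pde6c, Kif12, Afm, Apcs and B4galt6 are called lower, and Trf lies near 0.

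The rest of the albumin cluster on chromosome 5 was lower in mutants as well, with smaller fold changes than Afp and Alb. Gc, encoding the vitamin D carrier, was as abundant as Ambp, with 271, 216 and 373 CPM in control pools 1 to 3, against 148, 172 and 143 CPM in mutant pools 1 to 3. Every mutant pool was lower than every control pool (log2 fold change -0.89, SE 0.170, edgeR adjusted p 0.0139), and the call was lost on leaving out mutant pool 3 (edgeR adjusted p 0.0563). Afm, encoding afamin, a vitamin E carrier 10024 bases from Afp, had 34.1, 24.2 and 31.0 CPM in control pools 1 to 3, against 17.5, 16.1 and 14.6 CPM in mutant pools 1 to 3. Its groups did not overlap either (log2 fold change -0.89, SE 0.130, edgeR adjusted p 0.00432), and it was called with each pool left out in turn. The difference in fold change from Afp and Alb was not tested.

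Beyond the set, 117 further genes of plasma proteins and their handling were listed with earlier results of these data known, and all were found in the count tables. Of these, 49 were too low to test, and 6 of them had no read at all. Of the 68 tested, 12 were lower (17.6%) and 8 higher (11.8%), beside 4.28% and 3.67% of all tested genes, and 48 were not called. Their median log2 fold change was -0.06, against 0.00 for all tested genes. The 12 lower genes include Afm and Apcs, which were also counted above as flanking genes. They also include Apom and Igfbp1, which passed the filter on low counts through the controls, where they were high. The count of lower genes was 8 to 12 with 1 pool left out. The count of higher genes was less stable, with 2 without mutant pool 1 or mutant pool 2, 3 without control pool 1 or control pool 3, 4 without control pool 2 and 6 without mutant pool 3. The plot of fold change against level shows these genes on both sides of 0.

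**Figure D4:**
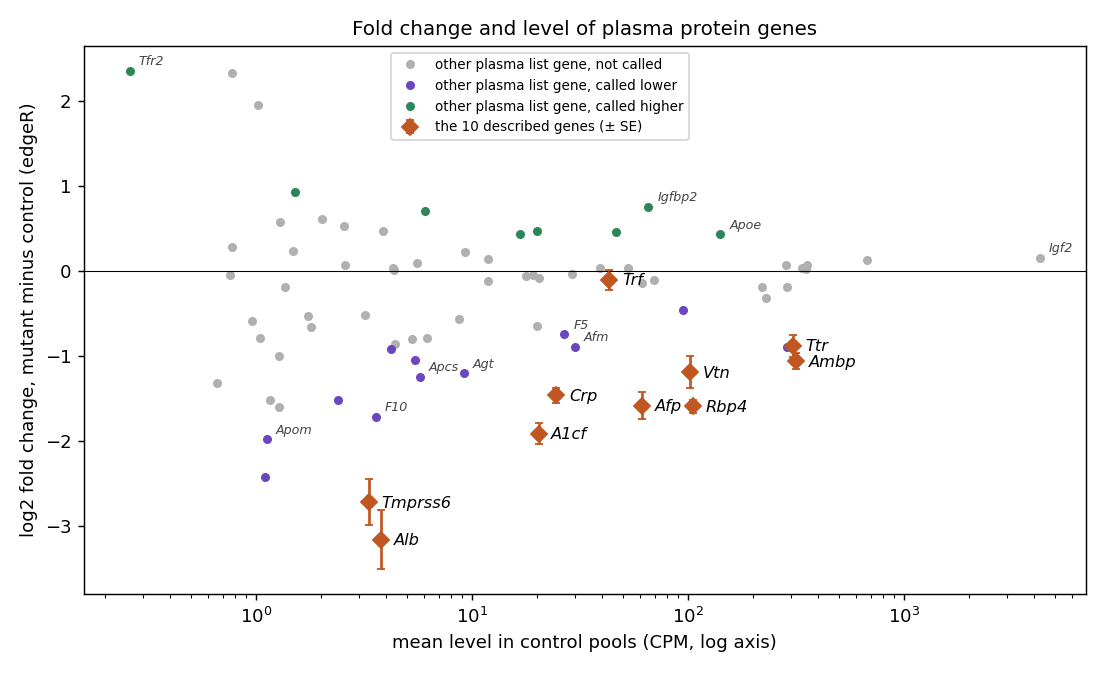
Log2 fold change from edgeR (mutant minus control) against the mean control level in CPM (log axis) for the 10 genes (orange diamonds, ± SE) and the 68 other tested plasma protein genes, of which 12 were called lower (purple) and 8 higher (green). The 10 genes apart from Trf lie between -0.88 and -3.16.

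Coagulation genes were lower where they were called at all, 3 of 9 tested and 0 higher, with a median log2 fold change of -0.79 and 11 not tested. F5, encoding coagulation factor V, fell from 26.7 to 16.0 CPM (log2 fold change -0.74, SE 0.0893, edgeR adjusted p 0.00169), and F10, encoding factor X, from 3.59 to 1.10 CPM (log2 fold change -1.71, SE 0.274, edgeR adjusted p 0.00641). Both were called with each pool left out in turn. Proc, encoding protein C, went from 4.21 to 2.21 CPM (log2 fold change -0.92, SE 0.216, edgeR adjusted p 0.0337), and its call was lost on leaving out control pool 1 or 3 or mutant pool 1 or 3 (edgeR adjusted p 0.0783 to 0.106). Pros1, encoding protein S and the highest of the list, was not called (log2 fold change -0.10, SE 0.107). Among 12 tested complement and acute phase genes 1 was lower and 1 higher. The lower one was Apcs, given above, and the higher one was Masp1, a protease of the lectin pathway, from 1.51 to 2.89 CPM (log2 fold change 0.93, SE 0.238, edgeR adjusted p 0.0471), a call lost on leaving out control pool 1, 2 or 3 or mutant pool 1 or 2 (edgeR adjusted p 0.0608 to 0.160). Lbp, encoding the lipopolysaccharide-binding protein, had the highest control level of that list, 61.0 ± 25.0 CPM (SD, n = 3), and was not called (log2 fold change -0.14, SE 0.339).

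Retinol genes other than Rbp4 moved in both directions, with 2 of 8 tested lower and 1 higher. 1300002K09Rik, now called Stra6l, which encodes a receptor for Rbp4, went from 2.38 to 0.833 CPM (log2 fold change -1.51, SE 0.272, edgeR adjusted p 0.0111). Bcmo1, now Bco1, which encodes the enzyme that makes retinal from carotene, went from 5.44 to 2.64 CPM (log2 fold change -1.04, SE 0.232, edgeR adjusted p 0.0279). Crabp1, a binding protein gene for retinoic acid, was higher, from 16.7 to 22.6 CPM (log2 fold change 0.44, SE 0.113, edgeR adjusted p 0.0484). None of these calls held with each pool left out in turn. That of 1300002K09Rik was lost on leaving out mutant pool 2 (edgeR adjusted p 0.0528), that of Bcmo1 on leaving out control pool 2 or 3 or mutant pool 1 or 2 (edgeR adjusted p 0.0521 to 0.0971) and that of Crabp1 on leaving out control pool 1 or 3 or mutant pool 2 or 3 (edgeR adjusted p 0.110 to 0.168). Without mutant pool 2 there were 0 calls in this list. Stra6, encoding the best known Rbp4 receptor, had 17.8 ± 1.20 CPM in controls and 17.3 ± 1.79 CPM in mutants (SD, n = 3), with overlapping groups (log2 fold change -0.05, SE 0.101).

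Iron genes, the setting of Trf and Tmprss6, were mostly not called, with 1 of 13 tested lower and 2 higher. St14, encoding matriptase, a protease related to Tmprss6, was lower, from 94.8 to 69.3 CPM (log2 fold change -0.45, SE 0.0775, edgeR adjusted p 0.00885), and was called with each pool left out in turn. Tfr2, encoding the second transferrin receptor, rose from 0.260 to 1.38 CPM, where the control pools held few reads (log2 fold change 2.36, SE 0.583, edgeR adjusted p 0.0415), and its call was lost on leaving out control pool 1, 2 or 3 or mutant pool 1 or 3 (edgeR adjusted p 0.0607 to 0.121). Bmp6, encoding an inducer of hepcidin, rose from 6.03 to 9.87 CPM (log2 fold change 0.71, SE 0.173, edgeR adjusted p 0.0399), a call lost on leaving out control pool 1, 2 or 3 or mutant pool 1 or 2 (edgeR adjusted p 0.0714 to 0.141). Tfrc, the main transferrin receptor gene, was not called, with 221 ± 20.7 CPM in controls and 193 ± 20.8 CPM in mutants (SD, n = 3, log2 fold change -0.19, SE 0.0860). Ftl1, the ferritin light chain gene and the highest of the list, was not called either (log2 fold change 0.07, SE 0.0485). Hfe2, encoding hemojuvelin, the substrate of Tmprss6, was too low to test, at means of 0.280 and 0.713 CPM.

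Known partners of Ambp and A1cf were not called lower with all 6 pools. Itih2, a heavy chain that is joined to bikunin in plasma, was not called, although its mutant pools lay below its control pools (log2 fold change -0.56, SE 0.206, edgeR adjusted p 0.154). Itih1, another heavy chain gene, named after its values were seen, had 1.19, 1.77 and 0.876 CPM in control pools 1 to 3, against 0.314, 0.236 and 0.686 CPM in mutant pools 1 to 3, with every mutant pool below every control pool (log2 fold change -1.60, SE 0.446, edgeR adjusted p 0.0648), and it was not called. With mutant pool 3 left out, Itih1 was called lower. Itih5, a further gene of that family, was higher (log2 fold change 0.47, SE 0.115, edgeR adjusted p 0.0398), a call lost on leaving out control pool 1, 2 or 3 or mutant pool 1 or 2 (edgeR adjusted p 0.0786 to 0.0957). Apobec1, the deaminase that A1cf guides, had 2.21, 1.83 and 1.99 CPM in control pools 1 to 3, against 3.14, 3.30 and 2.86 CPM in mutant pools 1 to 3. Its mutant pools lay above its control pools, and it did not pass the test (log2 fold change 0.62, SE 0.184, edgeR adjusted p 0.0782). Apob, whose mRNA is edited by this complex, was too low to test, at means of 0.516 and 0.720 CPM.

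Of 8 tested apolipoprotein and lipoprotein genes 1 was lower and 2 were higher. Apom, which encodes the plasma carrier of sphingosine-1-phosphate, went from 1.12 to 0.274 CPM (log2 fold change -1.98, SE 0.406, edgeR adjusted p 0.0194), a call lost on leaving out control pool 1 or mutant pool 1, 2 or 3 (edgeR adjusted p 0.0511 to 0.0659). Mutant pools 1 to 3 held only 2, 6 and 6 reads of Apom, so it passed the filter on low counts through the controls. Apoe rose from 141 to 191 CPM (log2 fold change 0.44, SE 0.0874, edgeR adjusted p 0.0173), a call lost on leaving out control pool 1 or mutant pool 1 or 2 (edgeR adjusted p 0.0524 to 0.0716). Lpl, encoding lipoprotein lipase, rose from 46.4 to 63.9 CPM (log2 fold change 0.46, SE 0.0982, edgeR adjusted p 0.0231), a call lost on leaving out control pool 1 or mutant pool 1 or 2 (edgeR adjusted p 0.0533 to 0.0679). Among 13 tested genes of other liver-secreted proteins 2 were lower and 1 was higher. Agt, encoding angiotensinogen, fell from 9.15 to 3.99 CPM (log2 fold change -1.20, SE 0.139, edgeR adjusted p 0.00138), and Igfbp2, a binding protein gene for insulin-like growth factors, rose from 65.3 to 110.2 CPM (log2 fold change 0.76, SE 0.106, edgeR adjusted p 0.00355), both with each pool left out in turn. Igfbp1 went from 1.09 to 0.198 CPM (log2 fold change -2.42, SE 0.475, edgeR adjusted p 0.0162), a call lost on leaving out control pool 1 or mutant pool 1 or 3 (edgeR adjusted p 0.0575 to 0.0653). Mutant pools 1 to 3 held only 2, 6 and 2 reads of Igfbp1, so it passed the filter on low counts through the controls. Igf2, the most abundant of the list, was not called (log2 fold change 0.16, SE 0.0467, edgeR adjusted p 0.0823).

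Most transcription factors known for liver genes had small fold changes. Of 19 tested, 5 were lower and 1 was higher, with a median log2 fold change of -0.19. Hnf4a had 36.9, 39.6 and 45.5 CPM in control pools 1 to 3, against 28.3, 31.3 and 30.1 CPM in mutant pools 1 to 3 (log2 fold change -0.44, SE 0.0856, edgeR adjusted p 0.0148), and Foxa3 went from 22.5 to 15.8 CPM (log2 fold change -0.52, SE 0.111, edgeR adjusted p 0.0236). Cebpa had 13.2, 14.5 and 15.9 CPM in control pools 1 to 3, against 9.99, 10.2 and 8.18 CPM in mutant pools 1 to 3 (log2 fold change -0.62, SE 0.121, edgeR adjusted p 0.0151). The rare Hnf4g, named here after its values were seen, was also lower, from 1.09 to 0.235 CPM (log2 fold change -2.16, SE 0.465, edgeR adjusted p 0.0238). Mutant pools 1 to 3 held only 2, 4 and 6 reads of Hnf4g, so it passed the filter on low counts through the controls. The call of Hnf4a was lost on leaving out mutant pool 1 or 3 (edgeR adjusted p 0.0509 to 0.0527) and that of Foxa3 on leaving out control pool 1 or 3 or mutant pool 1 or 3 (edgeR adjusted p 0.0721 to 0.0911). That of Hnf4g was lost on leaving out control pool 1 or 3 or mutant pool 1 or 2 (edgeR adjusted p 0.0762 to 0.0859). Foxa2 was not called (log2 fold change -0.21, SE 0.0744). Nr1h4, encoding the bile acid receptor FXR, was higher, with 1.134, 0.791 and 1.34 CPM in control pools 1 to 3, against 3.58, 3.59 and 3.37 CPM in mutant pools 1 to 3 (log2 fold change 1.68, SE 0.227, edgeR adjusted p 0.00301). The number of lower factors depended on the pools used, with 1 without mutant pool 1, 2 without control pool 1, control pool 3 or mutant pool 3, and 3 without mutant pool 2. With the Xist-poor pools both left out it was 0. Calls over all genes fell too, from 628 lower to between 343 and 416 without any 1 pool other than control pool 2. Without the Xist-poor pools 350 of all genes were lower. Nr5a2, the factor gene with the highest control level, was not called (log2 fold change -0.19, SE 0.0868, edgeR adjusted p 0.253), and without control pool 2 it was (edgeR adjusted p 0.0443).

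Most enzymes that define hepatocytes were at or near 0. Of 20 such genes, 17 were under 1 CPM in every pool, and Ass1, Cyp3a11, Cyp7a1 and Cyp2c29 had no read in any pool. The summed level of the list was 30.2 to 35.9 CPM in controls and 21.1 to 26.9 CPM in mutants. Of the 3 tested, 1 was called lower and 0 higher. Fah, encoding the last enzyme of tyrosine breakdown and the highest of the list, was not called (log2 fold change -0.24, SE 0.136).

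Most listed markers of the endocrine pancreas were called lower in mutants, where 9 of the 10 genes were lower too. The part of these markers in the result was not tested. Of 18 hormone cell genes, 11 were lower and 0 higher, with a summed level of 1974 to 2571 CPM in controls and 1399 to 1481 CPM in mutants and none of the 18 at 0. Pcsk2, a prohormone convertase gene, fell from 75.1 to 37.0 CPM (log2 fold change -1.02, SE 0.0894, edgeR adjusted p 0.000407). Gcg fell from 1448 to 879 CPM (log2 fold change -0.72, SE 0.0803, edgeR adjusted p 0.00117). Of 10 endocrine progenitor genes, 8 were lower and 1 higher, and their sum was 565 to 645 CPM in controls and 436 to 463 CPM in mutants. Btbd17 fell from 15.7 to 6.86 CPM (log2 fold change -1.19, SE 0.128, edgeR adjusted p 0.000981), Cck, encoding cholecystokinin, rose from 12.5 to 51.8 CPM (log2 fold change 2.04, SE 0.110, edgeR adjusted p 3.75e-05), and Amotl2, the highest of the list, was not called.

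Other cell types differed less uniformly. Acinar genes summed to 1978 to 4229.8 CPM in controls and 3269.5 to 4434 CPM in mutants, with 0 of 9 tested lower and 2 higher, Gp2 from 0.297 to 15.8 CPM (log2 fold change 5.70, SE 0.278, edgeR adjusted p 2.36e-05) and Cpb1 from 3.35 to 29.4 CPM (log2 fold change 3.12, SE 0.414, edgeR adjusted p 0.00280). Progenitor and duct genes summed to 2202 to 2540.1 CPM in controls and 1929 to 2175 CPM in mutants, with 2 of 10 lower and 1 higher. Cdh1 fell from 627 to 468 CPM (log2 fold change -0.42, SE 0.0745, edgeR adjusted p 0.0100) and Krt19 rose from 32.6 to 49.8 CPM (log2 fold change 0.61, SE 0.0607, edgeR adjusted p 0.000687), while Spp1 was not called. Erythroid genes summed to 1477 to 2346 CPM in controls and 1765 to 2485 CPM in mutants, and 6 of 10 were higher, or 3 without control pool 1 and 4 without control pool 3. Hemgn rose from 0.937 to 10.0036 CPM (log2 fold change 3.40, SE 0.455, edgeR adjusted p 0.00282), highest in mutant pool 1, and Hbb-y was not called. Gut and stomach genes summed to 74.0 to 94.1 CPM in controls and 81.1 to 102 CPM in mutants. Most of this sum was Barx1 alone, with means of 61.8 CPM in controls and 80.7 CPM in mutants. Of 6 tested, Onecut3 was lower (log2 fold change -1.14, SE 0.288, edgeR adjusted p 0.0451), a call lost on leaving out control pool 1 or 2 or mutant pool 1, 2 or 3 (edgeR adjusted p 0.0824 to 0.128), and Barx1 higher (log2 fold change 0.39, SE 0.0988, edgeR adjusted p 0.0472), a call lost on leaving out control pool 1 or 3 or mutant pool 2 or 3 (edgeR adjusted p 0.110 to 0.158). Mesenchyme genes summed to 8822 to 9086 CPM in controls and 9827 to 11250.3 CPM in mutants, and of 8 only Col1a1 was called, higher (log2 fold change 0.31, SE 0.0655, edgeR adjusted p 0.0208), a call lost on leaving out control pool 1 or 3 or mutant pool 1 or 2 (edgeR adjusted p 0.0590 to 0.104). Col3a1 was not called with all pools, and was without mutant pool 3 (edgeR adjusted p 0.0358).

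**Figure D5:**
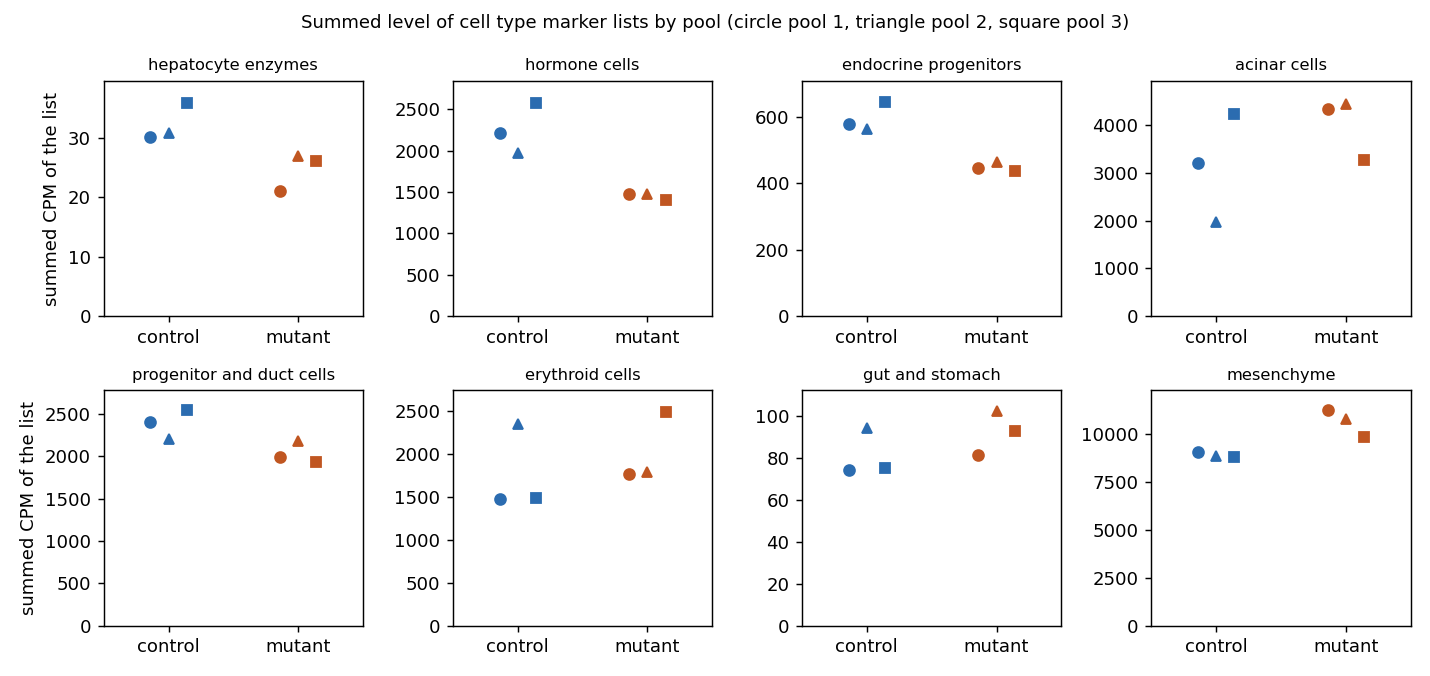
Summed CPM of 8 lists of cell type markers (linear axes from 0) in the 3 control pools (blue) and the 3 mutant pools (orange), with circles, triangles and squares for pools 1 to 3. Hepatocyte enzyme, hormone cell, endocrine progenitor and progenitor and duct sums are lower in every mutant pool than in every control pool, mesenchyme sums are higher, and acinar, erythroid and gut sums overlap. Most of the erythroid sum is Hbb-y, and most of the gut sum is Barx1.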

How the data were processed

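Reads were counted per gene by the authors in 6 libraries of E13.5 mouse pancreas, 3 control and 3 mutant, and the deposited files hold these whole-number counts for 23337 gene symbols, as raw counts. STAR, HTSeq 0.6.1p1, cutadapt 1.13 and DESeq2 were used, in no stated role or order, with build mm10, per the submitters' processing notes. Not given in the sources used here are the STAR version, the annotation, the strand setting and the handling of reads that map to several genes, so reads of overlapping genes cannot be told apart. The labels' protocol names Trizol for the extraction of RNA, whereas the series design names a column kit.

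Samples were grouped by their labels. Mutant was compared with control by the quasi-likelihood F test of edgeR 4.0.16 in R 4.3.3, after filterByExpr at its minimum count of 10, with TMM scaling, genotype as the only term and Benjamini-Hochberg adjustment over 14687 genes. A gene was called at an adjusted p under 0.05. Log2 fold changes are mutant minus control, and their SE was obtained as the absolute coefficient over the root of its F statistic. The method was tested on simulated data. Alternatives used DESeq2 1.42.0, limma 3.58.1 (voom), other scalings and filters, the replicate number as a block and fewer pools. Libraries of 1 group differed by more than sampling noise (chi-square per degree of freedom 3.58 to 13.4), so none was a duplicate.

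Lengths and positions are from GENCODE M21 on GRCm38, with a length for 97.7% of symbols. RPKM was computed from CPM and exonic length. The members, the lists and the tests were chosen with earlier results of these data known. Genes named beside the 10 were, for each list, up to 4 called genes (2 for cell type markers) with the smallest adjusted p and the gene with the highest control level. A fixed set of partner genes, among them Gc, Hnf4a, Apobec1 and Tfrc, and the 8 genes with the most similar profile were named too. Flanking genes were named by position. Results for some genes that this rule names are not reported here.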

Additional observations from a re-analysis of the deposited data

How the results depend on the processing

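The 10 genes were selected on this contrast, so their values under 14 alternative fits are given as a description, and none of their fold changes reversed. The log2 fold changes of Ttr (-0.62), Ambp (-0.89), Afp (-1.30) and Vtn (-0.83) without both pools with almost no Xist counts moved by more than the SD between pools. In that fit 350 genes were lower and 315 higher over all genes, and 1 other plasma protein gene was higher, where the full data gave 628, 539 and 8. Leaving out 1 pool at a time gave 343 to 725 lower genes, 282 to 696 higher genes and 2 to 6 higher plasma protein genes. The highest counts over all genes came without control pool 2. With limma voom 5 other plasma protein genes were higher. The cause of these moves was not tested. The full fit had 4 residual degrees of freedom, and every fit with fewer pools had fewer. The count of lower plasma protein genes was 12, and 8 to 15 over all alternatives.

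Equal replicate numbers did not pair the pools, since deviations of same-numbered pools correlated at 0.14, 0.10 and -0.05 over genes, and those of other pairs at -0.23 to 0.16. Not every pool correlated best with its own number. With the replicate number as a block, 562 genes were lower and 576 higher, with 14 lower and 7 higher among the other plasma protein genes.

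Alternatives for single named genes outside the set reversed 0 directions, and 120 of them ended a call. Depth limits what can be said of Alb and Tmprss6 in mutants, where a pool held 4 to 11 reads of either gene. The unstated annotation and strand setting limit the level of Trf, since reads in the bases it shares with Gm20425 in GENCODE may have been left out.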
